A study of Arabidopsis thaliana with 6 samples.

Results

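The plastid phosphate and sugar phosphate translocators of Arabidopsis thaliana comprise 6 genes: TPT (AT5G46110), PPT1 (AT5G33320, also CUE1), PPT2 (AT3G01550), GPT1 (AT5G54800), GPT2 (AT1G61800) and XPT (AT5G17630). They were taken by gene identifier and are 6 of the 32833 genes in the deposited count table. The family was chosen from the values of gi-2 and Col-0 in these same libraries, so the difference of each translocator between the genotypes is given as a description, with no test.

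RNA of whole seedlings was sequenced in 2 genotypes: wild-type Col-0, and gi-2, which carries a mutant allele of GIGANTEA (GI), a gene of the circadian clock and of photoperiodic flowering. Both were 7 d old and untreated, and had grown on plates of 0.5x MS. Days had 8 h of light (80 µmol m-2 s-1) and 16 h of darkness, at a constant 22 °C. Each genotype had 3 biological replicates, each a pool of 40 to 60 seedlings frozen at ZT0, the end of the night. The mutant was represented by the single allele gi-2 throughout. The labels do not say whether the replicates were grown on separate days, so p-values measure only the spread between these pools.

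The translocators sit in the inner envelope membrane of plastids and exchange inorganic phosphate for a phosphorylated carbon compound. TPT exports triose phosphates made by photosynthesis, from which the cytosol makes sucrose, while the PPT proteins import phosphoenolpyruvate, a precursor of aromatic amino acids through the shikimate pathway. The GPT proteins import glucose 6-phosphate for starch and for the oxidative pentose phosphate pathway, mainly in plastids that do not photosynthesize, and XPT carries xylulose 5-phosphate between the cytosolic and the plastid pentose phosphate pathways.

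Libraries held 18739317 to 23617717 counts, and 21345 to 22308 genes had at least 1 count. The first principal component, with 56.6% of the variance, separated the genotypes, and the second, with 17.5%, set replicate 1 of Col-0 apart from replicates 2 and 3. Of 19699 genes that passed the count filter, 6413 (32.6%) differed between gi-2 and Col-0 at an adjusted p under 0.05 in edgeR's quasi-likelihood test, 3199 (16.2%) being lower in gi-2 and 3214 (16.3%) higher. In 8920 genes (45.3%) every gi-2 library lay on one side of every Col-0 library. GI itself had 183, 210 and 139 counts in gi-2 and 68, 59 and 53 in Col-0, and was higher in gi-2 (log2 fold change 1.37 ± 0.21 (SE), adjusted p = 0.000168, edgeR). A count over the whole gene does not check the protein, and the lesion of the allele is not described in the labels.

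Of the 6 translocators, 5 passed the count filter and GPT2 did not. PPT2, XPT and PPT1 were lower in gi-2, by decreasing size of the difference, while TPT and GPT1 lay within 0.10 of 0 on the log2 scale. PPT2 stood far below the others: only 13 of the genes tested had a lower log2 fold change. In the fit over all genes 3 translocators lay past the threshold in the lower direction and 0 in the higher, beside 16.2% and 16.3% of all genes. In 4 of the 5 tested (TPT, PPT1, PPT2 and XPT) the 2 genotypes did not overlap, beside 45.3% of all genes tested. The median log2 fold change of the 5 was -0.34, and that of all genes tested was 0.00. These counts follow from how the family was chosen, and nothing is read from them. In whole seedlings, fewer cells of a type and less RNA per cell cannot be told apart.

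**Figure D1:**
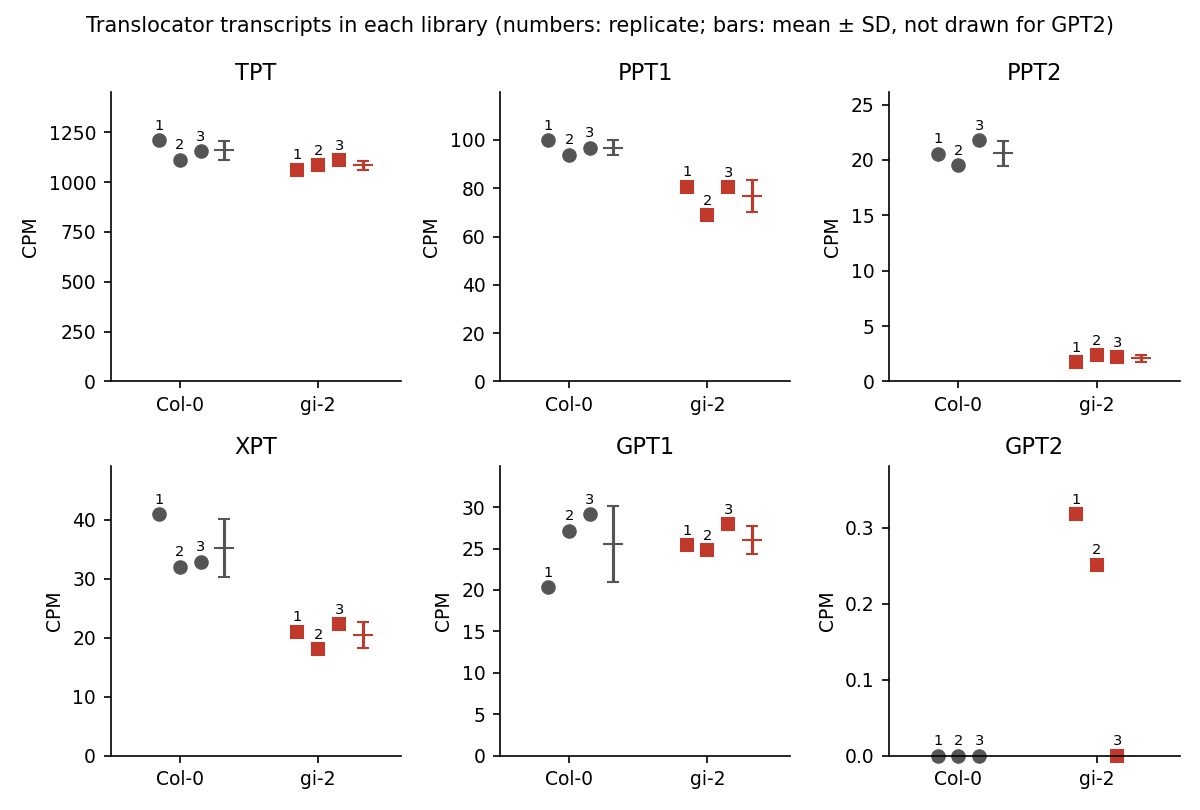
Counts scaled to library size (CPM, with TMM factors) of each translocator in the 3 Col-0 and 3 gi-2 libraries, on linear axes that start at 0. Points are libraries, numbered by replicate, and bars show mean ± SD. PPT2 lies at 1.72 to 2.34 CPM in gi-2, far under its 19.5 to 21.8 CPM in Col-0, whereas the GPT1 libraries of the genotypes overlap.

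PPT1 and PPT2 are the phosphoenolpyruvate translocators, and they differed unequally between the genotypes. The counts of PPT2, by replicate, were 38, 56 and 44 in gi-2 against 371, 398 and 431 in Col-0. Every gi-2 library was far under every Col-0 library. After scaling by library size and TMM factors (CPM), PPT2 stood at 2.09 ± 0.325 CPM (SD, n = 3) in gi-2 and 20.6 ± 1.12 CPM (SD, n = 3) in Col-0, so that gi-2 held 10.13% of the Col-0 level. The fitted log2 fold change was -3.30 ± 0.17 (SE), a 9.84-fold lower level in gi-2.

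PPT1, whose loss gives the reticulate leaves of the cue1 mutant, had 1779, 1647 and 1608 counts in gi-2 and 1803, 1913 and 1914 in Col-0. Its scaled levels were 80.7, 68.9 and 80.5 CPM in gi-2 and 99.9, 93.9 and 96.7 CPM in Col-0. The groups did not overlap after scaling, with gi-2 replicate 2 the lowest library. The mean was 76.7 ± 6.71 CPM (SD, n = 3) in gi-2 and 96.8 ± 2.98 CPM (SD, n = 3) in Col-0. The log2 fold change was -0.34 ± 0.08 (SE).

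Per kilobase of exon, PPT1 was already the more abundant of the pair in Col-0, 4.17 ± 0.202 times PPT2 (SD, n = 3), and in gi-2 it was 33.3 ± 7.75 times PPT2 (SD, n = 3). PPT2 made up 18.84%, 19.01% and 20.26% of the pair in the Col-0 libraries and 2.353%, 3.695% and 2.995% in the gi-2 libraries. The share of PPT2 therefore did not overlap between the genotypes, which restates the unequal differences of the pair given above. Within its group, gi-2 replicate 2 had the highest share. The pair is the second most alike by coding sequence of the 15 pairs in the family, with 65.2% identical bases over 1121 aligned positions.

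PPT2 lies on the minus strand of chromosome 3 at 216805 to 219136 and PPT1 on the plus strand of chromosome 5 at 12588741 to 12591748, both with 9 exons. The 250 bases before each annotated start are shown because these close paralogs differed by unequal amounts between the genotypes (RefSeq, TAIR10.1, strand of the gene, 5′ to 3′). PPT2 is at chr3:219137-219386 on the minus strand and PPT1 at chr5:12588491-12588740 on the plus strand.
PPT2: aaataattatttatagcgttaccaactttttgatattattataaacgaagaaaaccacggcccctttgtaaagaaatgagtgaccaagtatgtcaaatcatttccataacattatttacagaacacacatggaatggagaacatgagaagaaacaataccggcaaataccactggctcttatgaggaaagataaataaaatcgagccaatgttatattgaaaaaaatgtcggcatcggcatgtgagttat
PPT1: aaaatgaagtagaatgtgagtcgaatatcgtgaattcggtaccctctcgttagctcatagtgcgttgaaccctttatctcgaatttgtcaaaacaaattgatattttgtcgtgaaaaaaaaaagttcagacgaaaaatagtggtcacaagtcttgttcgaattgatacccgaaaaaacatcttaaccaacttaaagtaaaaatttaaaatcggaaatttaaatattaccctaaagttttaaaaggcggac
Neither window held any of 6 motifs searched on both strands: the evening element AAAATATCT, the CCA1-binding site AAAAATCT, the G-box CACGTG, the I-box core GATAAG, the sugar-repression element TATCCA and the phosphate-starvation site P1BS, GNATATNC. Windows of the same length before the annotated starts of nuclear protein-coding genes numbered 27443. These motifs occurred in 2.36%, 6.69%, 6.49%, 12.3%, 13.6% and 5.46% of them, in that order. The absence says only that these letters are not in these windows.

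The longest run of bases shared by the PPT1 and PPT2 transcripts is 15 bases, shown here because a read from an identical stretch alone cannot be assigned to one of the pair.
PPT1 and PPT2 shared run: atggagcctttcttc
It begins at coding base 613 of PPT1 and 526 of PPT2. The gene next to PPT2 on its downstream side, RH14 (an RNA helicase), lies 68 bases away and was also lower in gi-2, at 315 ± 8.36 CPM against 409 ± 6.16 CPM (SD, n = 3 each), with a log2 fold change of -0.38 and adjusted p = 0.000698 (edgeR). The upstream neighbour AT3G01560, 445 bases away on the other strand, had a log2 fold change of -0.10 and did not pass the threshold (adjusted p = 0.431, edgeR). AT5G33330 on the opposite strand shares 66 bases with the end of PPT1. It had 3 counts in gi-2 replicate 1, 0 in every other library, and was not tested. Reads from the shared bases cannot be told apart. Of genes that do not overlap PPT1, the nearest on either side were AT5G33300 and CDR1. AT5G33300 had a log2 fold change of -0.17 and did not pass (adjusted p = 0.677, edgeR), and CDR1 was not tested.

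XPT, an intronless gene of 1 exon, had 464, 432 and 445 counts in gi-2 and 738, 652 and 650 in Col-0. The gi-2 libraries lay at 21.0, 18.1 and 22.3 CPM and the Col-0 libraries at 40.88, 32.01 and 32.85 CPM. All gi-2 libraries were under all Col-0 libraries, and Col-0 replicate 1 was the highest. The means were 20.5 ± 2.15 and 35.2 ± 4.90 CPM (SD, n = 3 each), and the log2 fold change was -0.78 ± 0.12 (SE). Without Col-0 replicate 1, the library that stood apart, it was -0.67. Without that library and gi-2 replicate 2, where seed storage transcripts were highest, it was -0.58, an alternative chosen after seeing the data.

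XPT lies at 5809334 to 5810962 on the plus strand of chromosome 5. Its end shares 28 bases with ASG1 on the opposite strand, and a non-coding RNA of 296 bases, AT5G02755, lies within it and had 0 counts. The libraries carry no strand, so reads from shared bases cannot be told apart, and the 0 counts do not show that AT5G02755 is silent. ASG1 was higher in gi-2 (28.8 ± 3.14 against 21.0 ± 0.891 CPM (SD, n = 3 each), log2 fold change 0.45, adjusted p = 0.00498, edgeR), the opposite direction to XPT. The genes on either side, AT5G17620 and AT5G17650, did not pass the threshold, with log2 fold changes of 0.26 and -0.05.

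TPT, the triose phosphate exporter, was by far the most abundant of the family. It had 23394, 25881 and 22148 counts in gi-2 and 21841, 22643 and 22858 in Col-0. Scaled, gi-2 held 1061, 1083 and 1108 CPM and Col-0 1210, 1112 and 1155 CPM. The groups just missed each other: the highest gi-2 library and the lowest Col-0 library differed by less than the SD within either group. The means were 1084 ± 23.6 and 1159 ± 49.3 CPM (SD, n = 3 each) and the log2 fold change was -0.10 ± 0.07 (SE), not past the threshold. The upstream neighbour AT5G46100 had a log2 fold change of -0.16 and did not pass (adjusted p = 0.743, edgeR), and the downstream neighbour AT5G46115 was not tested. TPT has 12 exons and a tRNA gene of 72 bases on its opposite strand with 0 counts. The libraries carry no strand, so this 0 does not show that the tRNA gene is silent.

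GPT1, the glucose 6-phosphate translocator that is essential for gametophyte development, had 560, 593 and 558 counts in gi-2 and 367, 553 and 576 in Col-0. Levels were 25.4, 24.8 and 27.9 CPM in gi-2 and 20.3, 27.1 and 29.1 CPM in Col-0. The groups overlapped, and Col-0 replicate 1 was the lowest of the 6 libraries. The means of 26.0 ± 1.65 and 25.5 ± 4.61 CPM (SD, n = 3 each) gave a log2 fold change of 0.03 ± 0.13 (SE). The sign of this value changed with the libraries used, since it was -0.12 without Col-0 replicate 1 and -0.03 without gi-2 replicate 3. Its downstream neighbour TSB1, which encodes a tryptophan synthase subunit, was higher in gi-2 (log2 fold change 0.26, adjusted p = 0.0162, edgeR), and its upstream neighbour VUP4 was not tested.

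GPT2, the paralog known for its induction by sugars and by high light, had 7, 6 and 0 counts in gi-2 and 0 counts in each Col-0 library. The 13 counts of gi-2 came from 2 of 3 libraries, and gi-2 replicate 3 was at 0 like Col-0. The exact Poisson interval of 13 counts runs from 6.92 to 22.2 at 95% and covers counting error only. A count of 0 over the Col-0 group allows up to 3 counts at a 1-sided 95%, while the interval of the 13 counts is 2-sided. Against a floor of 3 counts over the Col-0 group, the 13 counts observed put GPT2 3.83-fold higher in gi-2. The lower end of their interval puts it 2.04-fold higher. Neither value has a test, is a 95% limit of the fold, or covers the spread between libraries. From the observed counts, the fold over the floor was 2.64, 3.23 and 5.47 without gi-2 replicates 1, 2 and 3 in turn. Leaving out Col-0 replicate 1, 2 or 3 gave 2.63, 2.47 and 2.52. That fall was fixed in advance, because the floor of 3 counts stays while the depth of the Col-0 group shrinks. The upstream neighbour RIC9 had a log2 fold change of -0.30 and did not pass (adjusted p = 0.323, edgeR), while the downstream neighbour BGLU45, a beta-glucosidase, was higher in gi-2 (log2 fold change 1.12, adjusted p = 0.00365, edgeR). Other annotated genes overlap BGLU45, so its reads are uncertain.

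GPT1 and GPT2 are the closest pair in the family, with 74.3% identical coding bases. Their longest shared run of 20 bases is shown because it is the longest stretch in which reads of any 2 members are alike.
GPT1 and GPT2 shared run: accgagcttaacttcaacat
It begins at coding base 694 in both. The other pairs of the family had 57.8% to 61.6% identity apart from PPT1 and PPT2.

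The only searched motifs in the family were before TPT and GPT2, and their windows are shown with the matches in capitals (RefSeq, TAIR10.1, 5′ to 3′). TPT, chr5:18696985-18697234 on the plus strand, held the CCA1-binding site from -85 to -78 of the annotated start. GPT2, chr1:22824164-22824413 on the plus strand, held P1BS as GTATATTC from -100 to -93 and the evening element from -82 to -74.
TPT: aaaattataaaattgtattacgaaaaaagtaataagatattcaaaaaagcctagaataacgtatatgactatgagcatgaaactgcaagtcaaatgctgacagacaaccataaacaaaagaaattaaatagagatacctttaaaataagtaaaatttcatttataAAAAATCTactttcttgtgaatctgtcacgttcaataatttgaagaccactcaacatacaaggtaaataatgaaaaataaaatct
GPT2: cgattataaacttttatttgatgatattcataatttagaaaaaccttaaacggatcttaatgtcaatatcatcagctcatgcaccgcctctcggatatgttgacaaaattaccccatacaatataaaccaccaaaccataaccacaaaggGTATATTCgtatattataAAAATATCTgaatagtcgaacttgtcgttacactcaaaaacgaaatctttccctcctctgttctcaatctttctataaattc
In the same order, the motifs of TPT and GPT2 stand in 6.69%, 5.46% and 2.36% of all windows. A match is a description of the letters and not a binding site. No motif was found in the windows of GPT1 and XPT.

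Levels of different genes were compared per kilobase of exon. In Col-0 the order was TPT (503 ± 21.4 CPM per kilobase), PPT1 (54.5 ± 1.68), XPT (21.6 ± 3.01), GPT1 (14.1 ± 2.54), PPT2 (13.1 ± 0.714) and GPT2 (listed at 0), each with SD and n = 3. GPT1 and PPT2 had overlapping ranges in Col-0 and did not differ beyond their spread. In gi-2 TPT (471 ± 10.3) and PPT1 (43.2 ± 3.78) kept the first places, followed by GPT1 (14.4 ± 0.908), XPT (12.6 ± 1.32), PPT2 (1.33 ± 0.207) and GPT2. PPT2 thus stood 9.46 times under its neighbour XPT in gi-2. The gi-2 ranges of GPT1 and XPT only just missed each other, and with the annotated span in place of exon length XPT lay above GPT1.

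**Figure D2:**
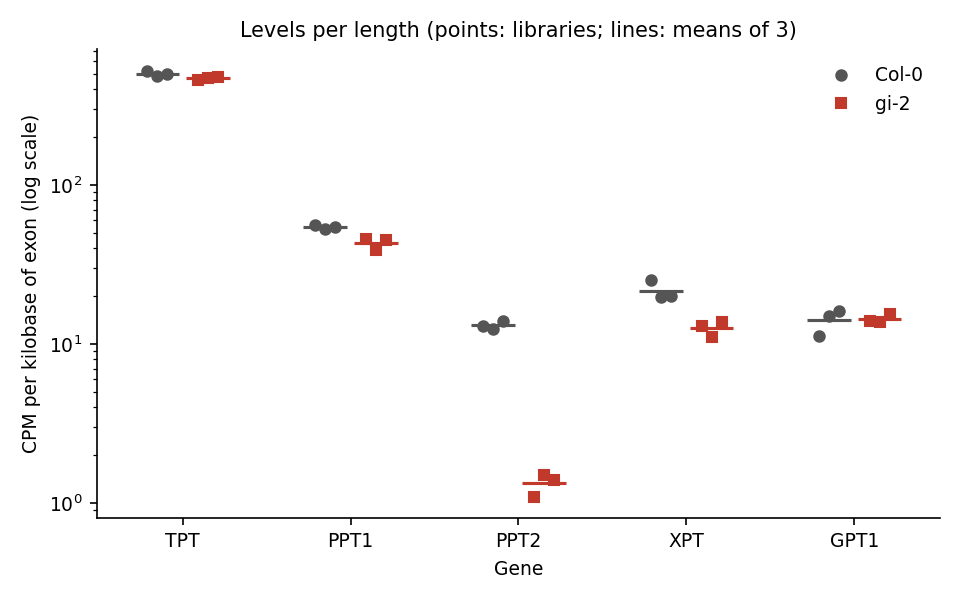
CPM per kilobase of exon of 5 translocators on a log axis; points are libraries and lines are means of 3, and GPT2 is left out because 4 of its 6 libraries are at 0. PPT2 is level with GPT1 in Col-0 and stands at 1.33 CPM per kilobase in gi-2, under all the other genes shown.

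TPT made up 83.0 ± 0.270% of the summed level of the family in Col-0 and 86.8 ± 0.878% in gi-2 (SD, n = 3 each), with no overlap between them. The summed level was 607 ± 24.2 CPM per kilobase in Col-0 and 542 ± 12.7 in gi-2 (SD, n = 3 each). The share of TPT was higher while its own level was not. A share of TPT must rise when the other members fall by more than TPT does. The family was chosen from these values, so nothing is read from the shares.

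**Figure D3:**
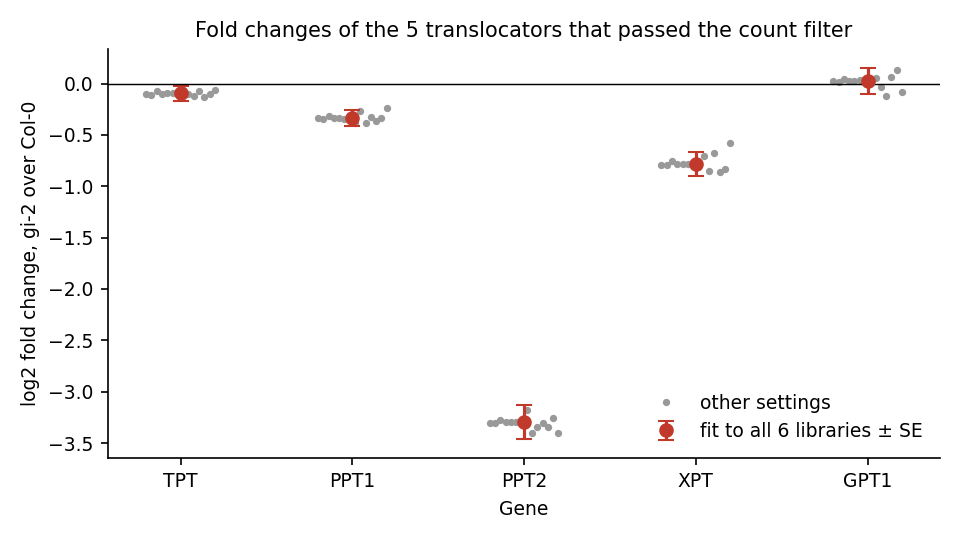
Log2 fold change of gi-2 over Col-0 for the 5 translocators that passed the count filter; red points with bars are the fit to all 6 libraries ± SE, and grey points are the other settings tried. PPT2 stays between -3.40 and -3.18, and the GPT1 values lie on both sides of 0.

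The genes whose pattern over the 6 libraries was most like a translocator were found by the root mean square difference of log2 CPM, each centred on its own mean, among 17122 genes. This is a description, and GPT2 was left out for its low counts. PPT2 was nearest to SQE5 (AT5G24150, an oxidoreductase of the squalene epoxidase family) at 0.18 log2 units, then to FMOGS-OX3 (a glucosinolate S-oxygenase) at 0.22 and CHS (chalcone synthase, the first enzyme of flavonoid synthesis) at 0.24. SQE5 stood at 0.497 ± 0.133 CPM in gi-2 and 6.51 ± 0.567 in Col-0, FMOGS-OX3 at 0.444 ± 0.165 and 4.56 ± 0.652, and CHS at 2.69 ± 0.830 and 21.0 ± 3.51 (SD, n = 3 each). Another annotated gene overlaps CHS. XPT was nearest to AT1G25510 (an aspartyl protease) at 0.03, to RPS17C (a ribosomal protein, with an overlapping gene) at 0.04 and to GT19 at 0.06. These 6 genes were all lower in gi-2, as a likeness over the same libraries requires. The genes nearest to PPT1 were THY-2, AT1G28350 and GLP4, those nearest to TPT were AT4G37830, AT1G26850 and AT1G57720, and those nearest to GPT1 were AT1G16930, AT3G56820 and AT4G24100, all within 0.02 to 0.04.

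The translocators work beside other plastid carriers and the enzymes that make or use their substrates. Of 79 such genes in 7 lists, all tested, 40 were lower in gi-2, 8 were higher and 31 did not pass the threshold. That is 60.8% past it beside 32.6% of all genes, of which 16.2% were lower and 16.3% higher. The lists were chosen with earlier results of these data known, so nothing is read from the difference in shares.

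**Figure D4:**
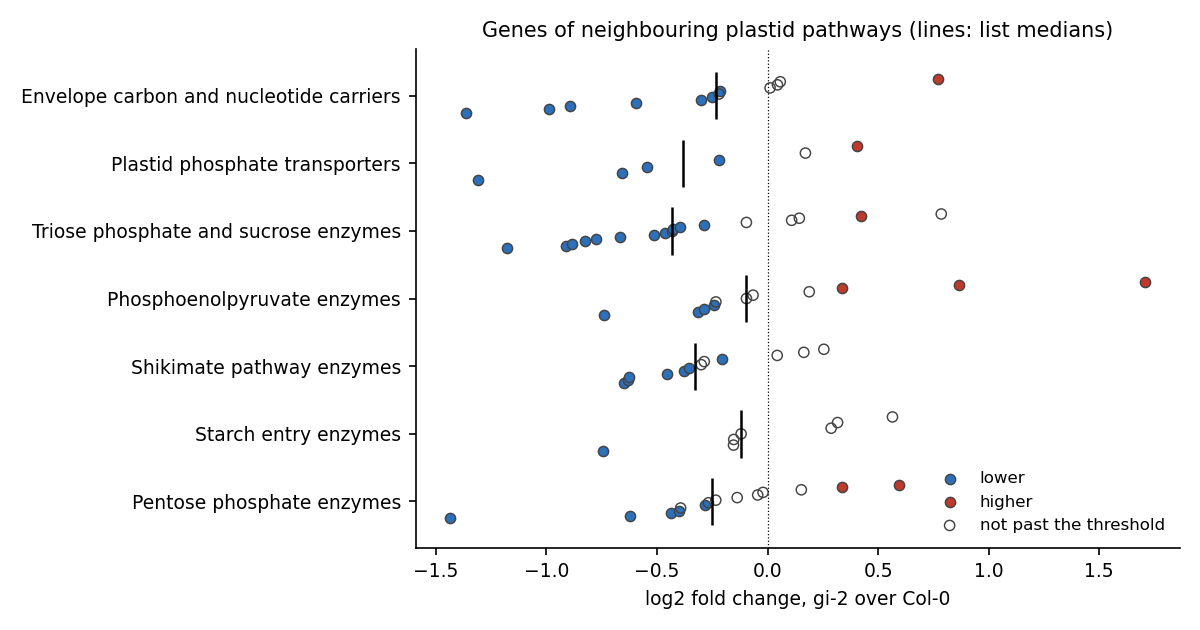
Log2 fold change of gi-2 over Col-0 for each gene of the 7 lists; blue points passed the threshold lower, red points higher, open points did not pass, and vertical lines are list medians. The medians lie between -0.43 and -0.10, and PPDK stands furthest to the right at 1.71.

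One list holds 17 enzymes on either side of TPT, which make or use triose phosphates in the plastid or lead to sucrose in the cytosol. Of these, 12 were lower, 1 was higher and 4 did not pass, with a median of -0.43. The genes named next are plastid enzymes of triose phosphates, not of sucrose synthesis. GAPB, a subunit of the photosynthetic glyceraldehyde phosphate dehydrogenase, fell from 2083 ± 120 to 920 ± 76.8 CPM (SD, n = 3 each; log2 fold change -1.18, adjusted p = 1.54e-07, edgeR). FBA2, a plastid aldolase, fell with a log2 fold change of -0.91 (adjusted p = 6.99e-07, edgeR), and GAPA-2 with -0.88 (adjusted p = 3.32e-06, edgeR). TPT itself, at -0.10, lay nearer 0 than the median of this list.

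Of 11 enzymes of phosphoenolpyruvate, the substrate of PPT1 and PPT2, 3 were higher, 4 lower and 4 did not pass, with a median of -0.10. Only 2 were lower without gi-2 replicate 1, without gi-2 replicate 2 or without Col-0 replicate 2. PPDK, which makes phosphoenolpyruvate from pyruvate, rose from 61.3 ± 5.87 CPM in Col-0 to 200.3 ± 24.6 CPM in gi-2 (SD, n = 3 each; log2 fold change 1.71, adjusted p = 2.31e-08, edgeR). PCK1, which makes it from oxaloacetate, rose from 355 ± 41.6 to 647 ± 31.5 CPM (SD, n = 3 each; log2 fold change 0.87, adjusted p = 4.3e-06, edgeR). ENO1, the plastid enolase, fell with a log2 fold change of -0.74 (adjusted p = 0.00072, edgeR). PPDK and ENO1 have overlapping annotated genes. Of 12 enzymes on or after the shikimate pathway, only some of which use phosphoenolpyruvate, 7 were lower, 0 higher and 5 did not pass. The median was -0.33, and 1 was higher without Col-0 replicate 1. DHS3 and EPSPS-2, which use phosphoenolpyruvate, both had a log2 fold change of -0.63 (adjusted p = 1.98e-05 and 4.99e-05, edgeR). DHQS, which does not use it, had -0.45 (adjusted p = 0.000402, edgeR).

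Of 7 enzymes at the entry to starch, which make or use glucose 6-phosphate or act after it, 1 was lower and 0 were higher. The other 6 did not pass, and the median was -0.12. Without Col-0 replicate 1, 2 were lower, and 1 was higher without Col-0 replicate 3 or with a replicate block. The lower one was APS1, the small subunit of ADP-glucose pyrophosphorylase, at 70.2 ± 4.52 CPM in gi-2 against 117 ± 3.66 in Col-0 (SD, n = 3 each; log2 fold change -0.74, adjusted p = 4.21e-06, edgeR). Of 14 pentose phosphate enzymes, linked to GPT1 and XPT, 5 were lower, 2 higher and 7 did not pass, with a median of -0.25. RPI3, a ribose phosphate isomerase whose locus overlaps another gene, had -1.43 (adjusted p = 9.36e-09, edgeR), and TKL1, a transketolase, had -0.62 (adjusted p = 7.57e-05, edgeR). XK2, the cytosolic kinase that makes the substrate of XPT, was higher (log2 fold change 0.59, adjusted p = 0.000198, edgeR) while XPT was lower.

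Of 12 other envelope carriers, mostly of carbon compounds and nucleotides, 7 were lower, 1 higher and 4 did not pass, with a median of -0.23. Without gi-2 replicate 1, 4 were lower. PLGG1, the plastid glycolate and glycerate carrier of photorespiration, fell from 96.3 ± 1.75 to 37.4 ± 4.79 CPM (SD, n = 3 each; log2 fold change -1.37, adjusted p = 1.01e-07, edgeR). The dicarboxylate carriers DIT1 and DIT2.1 had log2 fold changes of -0.99 and -0.90 (adjusted p = 3.27e-07 and 1.31e-06, edgeR), and another gene overlaps DIT1. Of 6 plastid phosphate transporters outside the family, 4 were lower, 1 higher and 1 did not pass, with a median of -0.38. The higher one lost its call without any single gi-2 library, without Col-0 replicate 1 and with upper-quartile scaling. PHT2;1 fell from 288 ± 21.0 to 116 ± 7.25 CPM (SD, n = 3 each; log2 fold change -1.31, adjusted p = 3.84e-08, edgeR). PHT4;1, which has an overlapping gene, and PHT4;5 had -0.66 and -0.54 (adjusted p = 0.000573 and 0.00304, edgeR). Of the translocators, PPT2 had a lower log2 fold change than every gene of the 7 lists.

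Markers of cell types in the seedling were measured beside the translocators. All 4 mesophyll markers were present, and their summed level was 60860 to 67763 CPM in gi-2, against 60566 to 64650 in Col-0. Most of that sum was LHCB1.3, which was higher in gi-2 (log2 fold change 0.34, not past the threshold without Col-0 replicate 2). RBCS1A, RBCS2B and RCA were lower, with log2 fold changes of -0.55, -0.88 and -1.29, and the median of the 4 was -0.72. Other annotated genes overlap LHCB1.3 and RCA, and also PYK10, CASP1 and IRX3 of the lists below. Of 6 root markers 2 were lower and 1 higher, and their sum was 2258 to 2417 CPM in gi-2, against 3498 to 3926 in Col-0. That sum is mostly PYK10, so it says little of the other root markers. The lower ones were PYK10 and COBL9, with log2 fold changes of -0.72 and -0.69. The higher one, CASP1, stood at 56.7 CPM in gi-2 and 38.4 in Col-0 (log2 fold change 0.56), and lost its call under 0 of 14 alternatives. Only 1 root marker was lower without gi-2 replicate 1, gi-2 replicate 3 or Col-0 replicate 2. Of 6 vascular markers 1 was lower and 1 higher, with sums of 235 to 248 CPM in gi-2, against 224 to 234 in Col-0. The higher one, SUC2, lost its call without any single gi-2 library or Col-0 replicate 3, and the lower one, IRX3, lost its call under 10 of 14 alternatives. Of 7 seed markers 5 were tested and 4 were higher, with sums of 21.8 to 367 CPM in gi-2, highest in gi-2 replicate 2, and 2.27 to 11.7 in Col-0. With limma-voom 1 seed marker was higher, and with no count filter 6 were. No marker was at 0 in all libraries. Their part in the values of the translocators was not tested.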

How the data were processed

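The values the authors deposited are unscaled read counts, whole numbers for every gene in every library, and beside them the gene length in bases. Per the submitters' processing notes, the tools were STAR 2.5.5, HTSeq 0.6.1 and DESeq2, with TAIR10 as genome build. How the counting treated strand and multi-mapped reads is not given in the sources used here. The libraries are non-directional, per the labels' protocols, so reads of overlapping genes cannot be told apart. The table held 32833 genes, of which 8687 had 0 counts in all libraries and 24 had annotation columns shifted by spaces, which were read around; 0 rows named no gene. Of 32524 nuclear genes, 32508 had the same coordinates in RefSeq TAIR10.1, whose genome and annotation gave symbols, positions and sequences. No protein table was used, so identity was measured on coding sequences.

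R 4.3.3 and edgeR 4.0.16 compared the genotypes. Genes were filtered by filterByExpr with a minimum count of 10 and a minimum total of 15, libraries were scaled by TMM, and all genes that passed went into 1 quasi-likelihood F test, with Benjamini-Hochberg adjusted p under 0.05. CPM are counts scaled to a common library size with the TMM factors. The scripts were checked on simulated data. Likeness used genes with a mean log2 CPM of at least 1. Identity was computed with Biopython 1.88. Alternatives were DESeq2 1.42.0, limma-voom (limma 3.58.1), upper-quartile scaling, no TMM factor, no filter, mean CPM of at least 1, a replicate block, leaving out each library, other gene lengths, another likeness measure and one strand only.

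Replicate pairs of a genotype differed by more than sampling noise (chi-square per degree of freedom 4.93 to 15.5); none was treated as a repeat deposit. The translocators and the lists of partner and marker genes were chosen with earlier results of these data known. Named were the 6 translocators, up to 3 genes with the smallest adjusted p per partner list, and the 3 genes most like each translocator. The nearest gene on either side of each translocator that does not overlap it was named too. ASG1, AT5G33330, AT5G02755 and the markers PYK10, COBL9, CASP1, LHCB1.3, RBCS1A, RBCS2B, RCA, SUC2 and IRX3 lie outside these rules. They were named after their values were seen.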

Additional observations from a re-analysis of the deposited data

How the results depend on the processing

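Under 14 alternatives each, the counts of genes called (4910 to 6687 against 6413) and of partner genes called higher (7 to 10 against 8) and lower (31 to 41 against 40) stayed within 1.5 times. Log2 fold changes ran from -3.40 to -3.18 for PPT2, -0.86 to -0.58 for XPT, -0.38 to -0.24 for PPT1, -0.13 to -0.06 for TPT and -0.12 to 0.13 for GPT1. The family was chosen from these values, so the ranges are a description. XPT moved by more than its spread only when replicate 2 of gi-2 and replicate 1 of Col-0 were both left out (-0.58), an alternative chosen after seeing the data. The fold of GPT2 over the floor ran from 2.23 to 5.47. It lay below 3.83 by over 1.5 times without Col-0 replicate 2 (2.47), without Col-0 replicate 3 (2.52) or without both libraries named above (2.23). Leaving out any Col-0 library must lower this fold, because the floor of 3 counts stays, so the fall does not single out a replicate. By length, PPT2 made up 19.4% of the PPT pair in Col-0 with exons, 21.6% with the span and 18.5% with the coding length. In Col-0, GPT1 was 0.421 times XPT with the span. In gi-2, GPT1 was 1.14 times XPT with exons, 0.740 with the span and 1.37 with the coding length. Of the 15 genes named as most like a translocator, 9 were also named by the largest difference. Members with a motif on the given strand alone numbered 2, as on both strands. Correlations of same-numbered deviations between the genotypes were 0.00207, 0.0145 and 0.0156, and those of differently numbered ones ran from -0.0188 to 0.00417. Whether the replicate numbers mark a shared batch was not tested. With a replicate block 6161 genes were called and PPT2 had -3.30. GPT2, with 0 to 7 counts a library, was too low for a fold change, and with 3 libraries a genotype the SD between libraries limits what could be seen for TPT and GPT1.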
